A study of Rattus norvegicus with 4 samples.

Results

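The genes described are those of the cytosolic ribosomal proteins, read from 4 Agilent rat arrays. They were chosen by name alone. A gene was a member when its name on the array was Rpl or Rps followed by a number, or Rplp0, Rplp1, Rplp2 or Rpsa, with the S6 kinases left out. The rule found 72 genes among 35658 gene names, read by 108 probes of 41012, in 126 spots of 43379. Of the 72, 38 encode proteins of the large subunit, 31 encode proteins of the small subunit, 2 (Rplp1 and Rplp2) encode acidic proteins of the stalk, and 1 (Rpl3l) is a variant paralog of Rpl3 known from striated muscle. No probe carried the name Rplp0. The array named that gene Arbp, which stood outside the rule, and its values are given further on as such.

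A cytosolic ribosome is built from a large and a small subunit, each an RNA core covered by small basic proteins that are needed in equal numbers. The genes of these proteins are among the most strongly expressed in nearly every cell, and their messages carry a common start sequence through which mTOR sets their translation as a group. For these reasons they are often read as a stable class, and Rps18, Rpl13a, Rpl32 and Rplp0 are common reference genes in expression studies.

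The samples were cultured olfactory ensheathing cells, the glia that accompany the axons of olfactory neurons, from male Fischer rats. Flow cytometry on p75, a receptor for neurotrophins, divided the cells into a p75High and a p75Low population, and 4 paired biological replicates were taken, 1 array each. On every array the p75High cDNA carried Cy5 and the p75Low cDNA carried Cy3, so population and dye cannot be told apart in any ratio. Both populations went through the same amplification of cDNA by global PCR before labelling, per the labels. The labels give no age and do not say whether the replicates were separate animals. The p-values therefore measure only how far these 4 arrays spread, which may include technical error.

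The value used throughout is the log2 ratio of p75High over p75Low on 1 array, and means are given ± SD over n = 4 arrays unless stated. A gene's test is limma's moderated test of that ratio against 0, two-sided, adjusted over all tested genes by the method of Benjamini and Hochberg, with a threshold of 0.05. The sort was visible in Ngfr, which encodes p75. Its ratio was 6.07, 6.17, 5.02 and 5.96 on arrays 1 to 4, with a mean of 5.80 ± 0.53 and an adjusted p of 0.0262. Of 11 tested genes on a list of ensheathing glia 1 was higher past the threshold, Ngfr itself, and 0 of the other 10 passed, with the glial transcription factor Sox10 at 4.56 ± 1.90 (adjusted p 0.155) and the calcium-binding protein S100b at 3.75 ± 2.42 (adjusted p 0.30). Over all 11, the sorted gene Ngfr included, the summed channel level was 26245 to 42499 in p75High against 1625 to 12545 in p75Low. Of 10 genes of microglia and macrophages 8 were lower past the threshold, and their summed level was 6845 to 10646 in p75High against 2.02e+05 to 3.39e+05 in p75Low. Among them Ctss, a lysosomal protease, had a ratio of -6.11 ± 0.79, Csf1r, the receptor for macrophage growth factor, -6.08 ± 0.61 and Emr1, a macrophage surface receptor, -5.87 ± 0.69, each with an adjusted p of 0.0262. With the median over its probes Csf1r was at -0.25 (adjusted p 0.712). Of 5 fibroblast genes 0 passed, with Postn, a matrix protein, at 4.80 ± 1.60 (adjusted p 0.0970) and Col1a1, a collagen chain, at 2.73 ± 1.20 (adjusted p 0.192). The other 3 had negative means, with Col1a2, a collagen chain, at -2.71 ± 1.48 (adjusted p 0.259) and the surface protein Thy1 at -0.99 ± 0.38 (adjusted p 0.326), both negative on all 4 arrays, and Col3a1, a collagen chain, at -2.42 ± 3.91 (adjusted p 0.560). The median of the 5 was -0.99, with sums of 60567 to 79278 in p75High against 13213 to 32665 in p75Low. The populations thus differed in markers of other cell types, whose part in the ribosomal protein values was not tested. In bulk samples fewer cells of a type and less RNA per cell cannot be told apart.

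Each probe is a 60-base DNA strand, and several members have more than 1. The probes shown here are those on which the comparison of probes rests, copied from the array files, with coordinates in build rn4 as those files give them and start positions counted in the transcript they name. Rpl31, a protein near the exit of the nascent chain, has 3 probes, from base 278 (chr9:38439733-38441625, plus strand, spanning an intron), base 399 (chr9:38441687-38442579, spanning an intron) and base 466 (chr9:38442587-38442635).
Rpl31 from base 278: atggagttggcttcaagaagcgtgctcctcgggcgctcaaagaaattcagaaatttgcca
Rpl31 from base 399: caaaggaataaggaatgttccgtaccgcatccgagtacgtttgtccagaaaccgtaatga
Rpl31 from base 466: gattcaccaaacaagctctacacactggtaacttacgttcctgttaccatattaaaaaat

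Rpl5, which carries the 5S RNA into the large subunit, has 3 probes on the minus strand of chromosome 14, from base 190 (chr14:2402608-2402753), base 269 (chr14:2401483-2402588) and base 765 (chr14:2400673-2400732). They are shown because the last did not follow the others.
Rpl5 from base 190: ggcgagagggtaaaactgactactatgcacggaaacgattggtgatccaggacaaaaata
Rpl5 from base 269: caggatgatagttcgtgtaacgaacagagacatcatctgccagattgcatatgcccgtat
Rpl5 from base 765: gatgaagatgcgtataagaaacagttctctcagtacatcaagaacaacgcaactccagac

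Rps25, of the small subunit, has a probe on each strand at chr8:47375104-47375163, shown because all 60 bases of one are the reverse complement of the other.
Rps25, plus strand: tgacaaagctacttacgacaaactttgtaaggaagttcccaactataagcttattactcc
Rps25, minus strand: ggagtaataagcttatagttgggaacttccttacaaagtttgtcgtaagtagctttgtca

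Rpl29, of the large subunit, has probes from base 107 (chr8:111574250-111575030) and base 127 (chr8:111574270-111575050) that overlap by 40 bases and differ in 5 of them, which are in capitals. Rps20, of the small subunit, is shown by its probe from base 265 (chr5:162082707-162082766, plus strand), the member with the widest spread between arrays. The probe of Rplp1, one of 2 member probes printed 10 times, lies at chr8:66046251-66046310 on the minus strand. Its capitals mark the stop codon in its first reading frame, with 9 bases after it.
Rpl29 from base 107: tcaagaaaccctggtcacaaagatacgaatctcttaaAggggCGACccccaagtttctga
Rpl29 from base 127: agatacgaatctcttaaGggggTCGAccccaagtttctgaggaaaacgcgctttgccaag
Rps20 from base 265: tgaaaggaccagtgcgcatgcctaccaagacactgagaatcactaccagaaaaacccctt
Rplp1 from base 408: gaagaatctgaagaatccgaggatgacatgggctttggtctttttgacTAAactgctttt

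The member probes were bright. Of 108 member probes, 105, 104, 107 and 102 stood well above background in the p75High channel of arrays 1 to 4, and 105, 107, 107 and 101 in the p75Low channel. Over all 41012 probes the number was 22464 to 28062 in p75High and 23044 to 26174 in p75Low. In both channels of all 4 arrays 98 of the 108 member probes were above background, against 38% of all probes. A probe was kept if 3 or 4 arrays showed it above background in 1 and the same population, which held for 107 of the 108 member probes. The one left out was a second probe of Rpl28, above background on 0 arrays. Each gene is given by its brightest kept probe, and all 72 members were among the 22195 genes tested. The mean log2 brightness of the spot had a median of 13.17 over members and 7.99 over all tested genes, and 97.9% of tested genes had a spot less bright than the median member. No member reading was saturated.

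The comparison asked which of these genes differed between the populations sorted by p75. By limma, 0 of the 72 passed an adjusted p of 0.05 in either direction. Beside them, 0.748% of all tested genes passed (166 of 22195), with 0.311% higher and 0.437% lower. At an unadjusted p under 0.05, 0 members were higher in p75High, beside 5.81% of all genes, and 9 were lower (among them Rps28, Rps3a, Rpl3l and Rplp1), beside 6.91% of all genes. Probe by probe, 0 of 107 kept member probes passed, beside 0.655% of all kept probes (163 of 24872). The lowest adjusted p among members was 0.0921, for Rpl3l.

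The members' mean ratios lay below 0 more often than above. The mean was negative for 52 of 72, beside 51.4% of all tested genes, and the median over members was -0.70 (quartiles -1.54 and 0.05), against -0.03 over all tested genes. Over the 1015 other tested genes with a log2 brightness of at least 11.9, which 54 members reached, the median was -0.21. The mean was negative for 581 of these 1015 genes. The backgrounds that follow are shares of all tested genes, not matched for brightness. A mean at or under -2 was found in 11 members (background 6.14%), and a mean at or over 2 in 0 (background 5.51%). On all 4 arrays 16 members were negative (background 13%) and 0 were positive (background 12.5%). The remaining 56 took both signs. The median over members was -0.68, -0.81, -0.07 and -0.91 on arrays 1 to 4, so it was near 0 on array 3 alone. The large-subunit median was -0.55, with 26 of 38 negative, and the small-subunit median was -0.72, with 23 of 31 negative. The subunits lay furthest apart on array 4, with medians of -0.41 for the large and -2.20 for the small subunit. No set of genes was tested as a group.

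**Figure D1:**
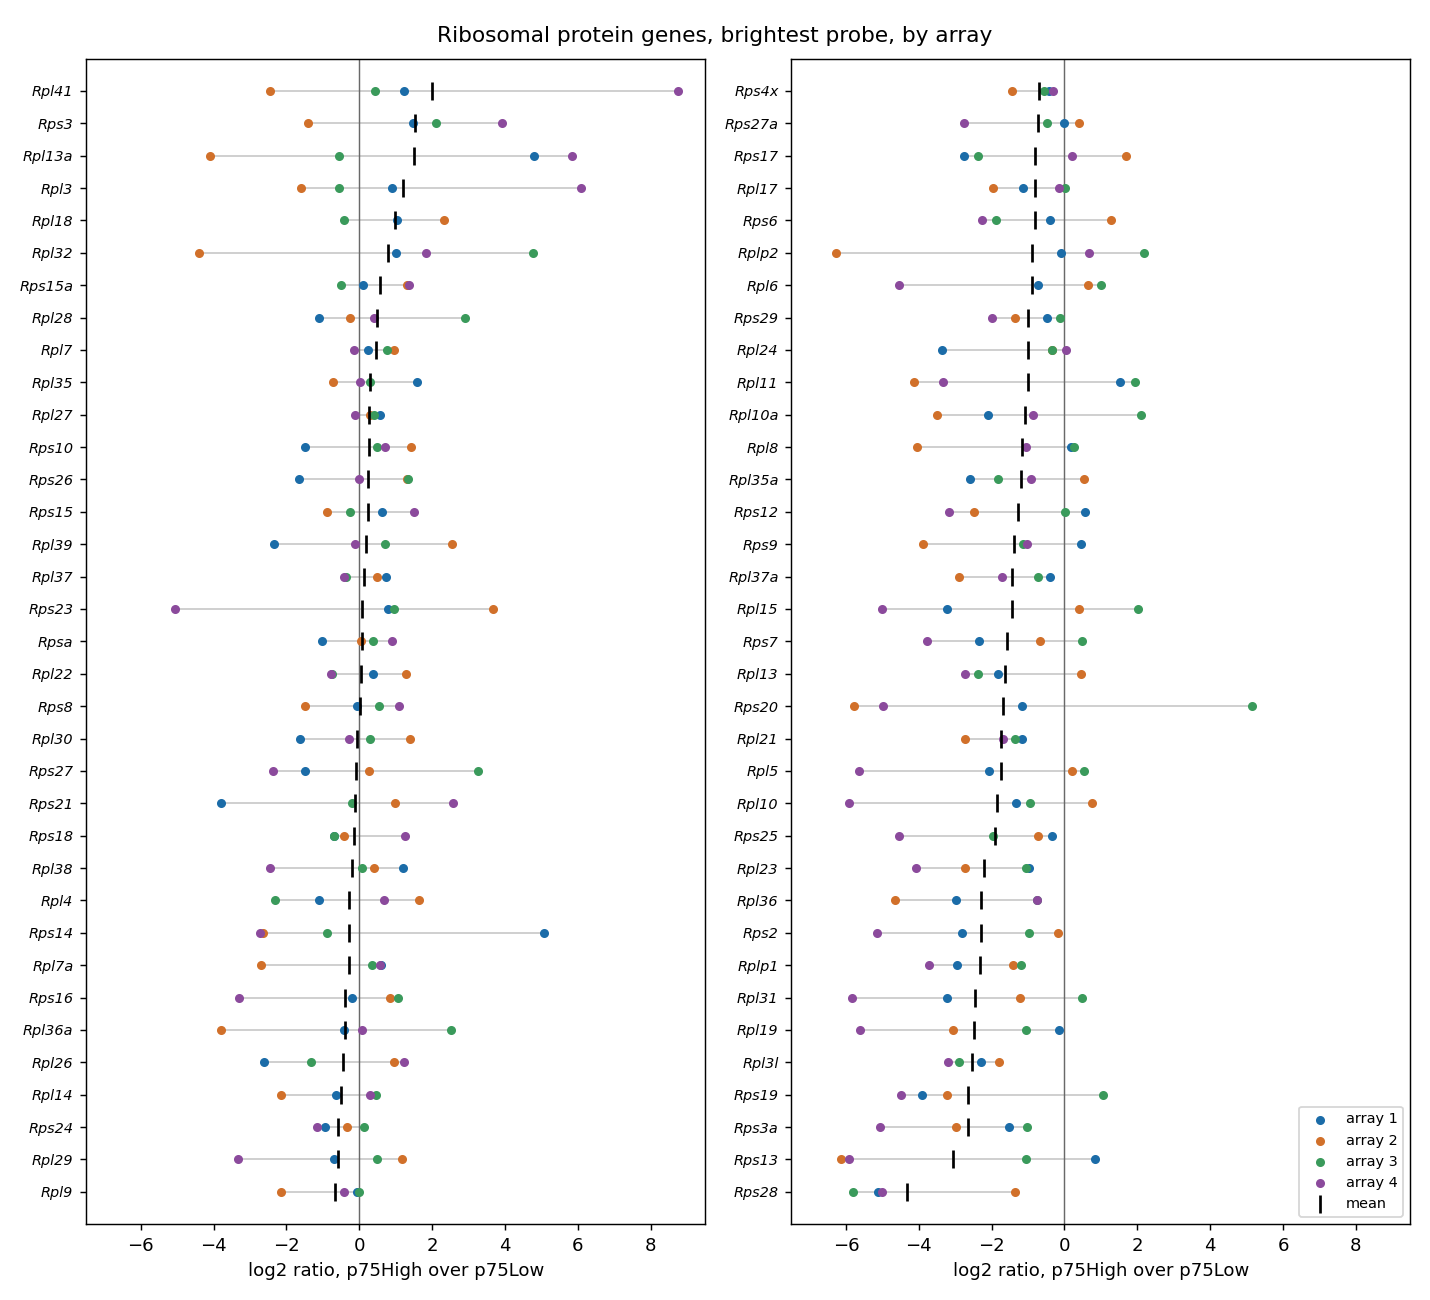
Log2 ratio of p75High over p75Low (x axis) of 70 of the 72 ribosomal protein genes by its brightest probe (rows, ordered by mean), with 1 point per array and a black bar at the mean. For 34 genes the arrays span more than 4 log2 units, and for 56 the points lie on both sides of 0.

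Of the small subunit, Rps28, which lies near the exit of the messenger RNA, had the lowest mean. Its ratio was -5.13, -1.35, -5.80 and -5.02 on arrays 1 to 4, low on 3 arrays and nearer 0 on array 2. The mean was -4.33 ± 2.02, or 20.1-fold lower, with an adjusted p of 0.185. Rps13, a core protein of the small subunit, read 0.84, -6.15, -1.06 and -5.93 (mean -3.07 ± 3.51, adjusted p 0.458). Arrays 2 and 4 were low and array 1 was above 0. Rps3a read -1.52, -2.98, -1.02 and -5.07 (mean -2.65 ± 1.81, adjusted p 0.320), negative throughout. Rps19, the gene most often mutated in human Diamond-Blackfan anaemia, read -3.92, -3.22, 1.05 and -4.50 (mean -2.65 ± 2.52, adjusted p 0.401), with array 3 alone above 0.

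Rps4x, whose gene is X-linked, was among the most even members, at -0.44, -1.45, -0.56 and -0.31 (mean -0.69 ± 0.52, adjusted p 0.467). Rps3, which helps form the entry of the messenger RNA, had the highest small-subunit mean, with ratios of 1.48, -1.40, 2.12 and 3.91 (mean 1.53 ± 2.21, adjusted p 0.536). It was below 0 on array 2 alone.

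The small-subunit genes used most in signalling and reference work were close to 0 or uneven. Rps6, the substrate of the S6 kinases, read -0.41, 1.29, -1.89 and -2.26 (mean -0.82 ± 1.62, adjusted p 0.640). Rps18, a common reference gene, read -0.68, -0.41, -0.71 and 1.27 (mean -0.13 ± 0.94, adjusted p 0.914), and averaged 0.24 with arrays centred on their median in place of loess. Rpsa, which doubles as a laminin receptor, read -1.03, 0.06, 0.37 and 0.89 (mean 0.07 ± 0.81, adjusted p 0.947). On array 4 its log2 level was 8.60 in p75High and 7.71 in p75Low, against 13.8 to 14.8 on the other arrays. The other Rpsa probe was at 6.06 and 6.14 on array 4, so the signal was low in both channels there. None of these genes kept 1 sign on all arrays. Rps27a, made as a fusion with ubiquitin, read -0.03, 0.41, -0.49 and -2.77 (mean -0.72 ± 1.41, adjusted p 0.644). Rps23, of the decoding centre, read 0.78, 3.68, 0.95 and -5.06, and its mean of 0.09 ± 3.68 (adjusted p 0.985) lay between opposite extremes on arrays 2 and 4 and was -1.11 without array 2.

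Of the large subunit, Rpl41, its smallest protein, had the highest mean and the single widest reading. It read 1.24, -2.45, 0.45 and 8.75, so array 4 set the mean of 1.99 ± 4.77 (adjusted p 0.677). Without array 4 the mean was -0.26. On array 4 its log2 channel level, scaled to be comparable between channels and arrays, was 17.19 in p75High against 8.45 in p75Low, and on the other arrays it lay between 13.91 and 16.32 in p75High and between 15.08 and 16.36 in p75Low. The p75Low reading of array 4 was thus the one apart. Rpl3, a core protein of the large subunit, read 0.90, -1.59, -0.55 and 6.08 (mean 1.21 ± 3.40, adjusted p 0.725), again high on array 4 alone, and averaged -0.41 without it.

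Rpl13a and Rpl32, both common reference genes, were among the members with the widest spread. Rpl13a read 4.79, -4.10, -0.54 and 5.83 (mean 1.49 ± 4.66, adjusted p 0.750), high on arrays 1 and 4 and low on array 2. Rpl32 read 1.00, -4.41, 4.76 and 1.83 (mean 0.80 ± 3.83, adjusted p 0.840), and averaged -0.52 without array 3. The 2 genes had array 2 as their lowest in common and differed in their highest. Rpl18 read 1.03, 2.32 and -0.42 on arrays 1 to 3, with its array 4 spot left out as an outlier (mean 0.98 ± 1.37, n = 3, adjusted p 0.586).

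At the low end, Rpl19 read -0.15, -3.06, -1.07 and -5.62 (mean -2.47 ± 2.42, adjusted p 0.414), negative throughout but close to 0 on array 1. Rpl10, which joins the subunit last, read -1.34, 0.75, -0.93 and -5.92 (mean -1.86 ± 2.85, adjusted p 0.547), with array 4 far below the rest. Rpl3l, the muscle variant, read -2.30, -1.79, -2.90 and -3.20 and the arrays lay within 1.41 units of each other. Its mean was -2.55 ± 0.63 (SE 0.36), or 5.84-fold lower, with an unadjusted p of 0.00121 and an adjusted p of 0.0921. With the pairing of the channels ignored its adjusted p was 0.0154.

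The most even member was Rpl27, of the large subunit. It read 0.56, 0.29, 0.39 and -0.11 (mean 0.28 ± 0.28, adjusted p 0.687), all close to 0. Rpl7, the brightest spot of the class, read 0.25, 0.96, 0.76 and -0.13 (mean 0.46 ± 0.50, adjusted p 0.583). Rpl37, a zinc-binding protein, read 0.75, 0.48, -0.35 and -0.41 (mean 0.12 ± 0.58, adjusted p 0.898), and RefSeq gives its transcript the name Rpl37l1. Rpl30, also among the 4 brightest, read -1.63, 1.40, 0.29 and -0.28 (mean -0.06 ± 1.26, adjusted p 0.970), and averaged 0.34 with median centring. Rpl22, which has the close paralog Rpl22l1, read 0.39, 1.29, -0.74 and -0.77 (mean 0.04 ± 0.99, adjusted p 0.972). Over the 107 kept probes brightness and SD between arrays were weakly related (Pearson r -0.17, Spearman rho -0.28, over probes that share arrays).

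The stalk, which recruits the elongation factors, gave different patterns for its proteins. Rplp1 read -2.94, -1.42, -1.20 and -3.71, negative on all arrays (mean -2.32 ± 1.21, adjusted p 0.257). Its partner Rplp2 read -0.11, -6.29, 2.18 and 0.67 (mean -0.88 ± 3.72, adjusted p 0.816), with array 2 far below the others, and averaged 0.92 without it. The gene of the stalk base, Rplp0, under its array name Arbp, read 0.25, -0.76, 4.64 and 5.31 (mean 2.36 ± 3.06, adjusted p 0.503), high on arrays 3 and 4.

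The spread between arrays was the main feature of the class. The median SD between arrays was 1.79 over members, 1.75 in the large and 1.81 in the small subunit, against 1.14 over all tested genes and 1.17 over the other bright genes. Among the 4439 brightest tested genes, which included 67 members, the median SD was 1.78 over those members and 1.52 over all 4439. The arrays differed by over 2 log2 units in 59 members (background 59%) and by over 4 in 34 members (background 31.9%). These are descriptions, and the difference in spread was not tested.

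**Figure D2:**
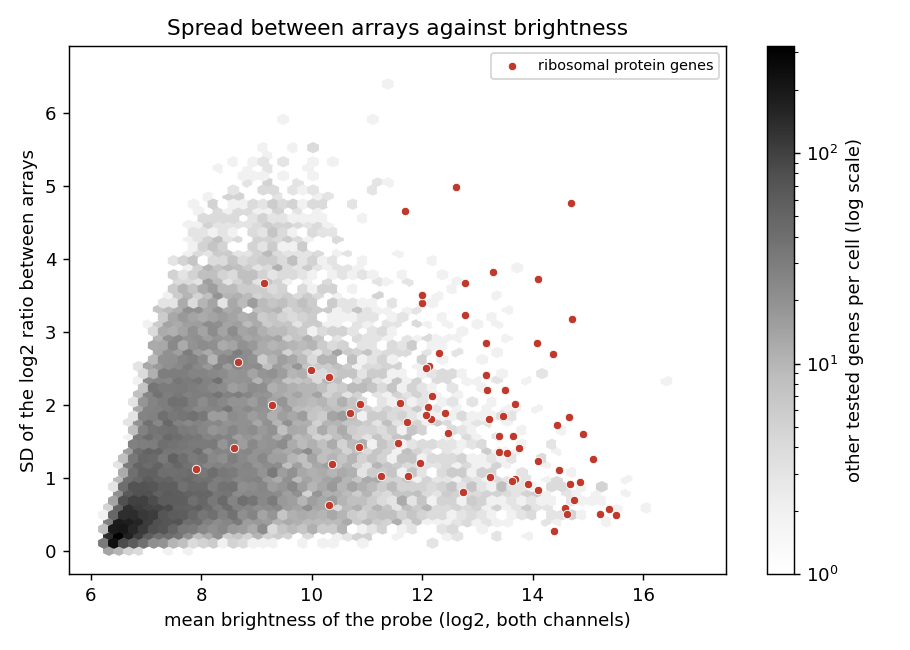
SD of the log2 ratio between the 4 arrays (y axis) against the mean log2 brightness of the probe over both channels (x axis), for the 72 ribosomal protein genes (red points) and the other tested genes (grey cells, shaded by number on a log scale). Members lie to the right, at a median brightness of 13.17, and their SD runs over 0.28 to 4.99.

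The widest member was Rps20, whose probe is shown above. It read -1.17, -5.78, 5.14 and -4.99, so arrays 2 and 3 were 10.9 units apart in opposite directions. On array 2 its level was 9.47 in p75High against 15.24 in p75Low, and on array 3 it was 15.50 in p75High against 10.36 in p75Low. The mean of -1.70 ± 4.99 (adjusted p 0.733) lay near the reading of -1.17 on array 1 and far from those of the other arrays.

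Members did not keep their order between arrays. Over the 72 members, the ratios of 2 arrays correlated at Pearson r of -0.21 to 0.34 over the 6 pairs of arrays. The other 1015 bright genes gave 0.39 to 0.57 and all tested genes 0.18 to 0.25. The channel levels of the members were more alike, with r of 0.37 to 0.73 between arrays in p75High, 0.49 to 0.77 in p75Low, and 0.45 to 0.69 between the 2 channels of an array. Levels carry each probe's own brightness, which all arrays share, while the ratio removes it.

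Single channels showed where the wide readings lay. For each member the median of its 8 channel levels (4 arrays, 2 populations) was taken, and readings more than 2 log2 units from it were counted. In p75High 53 of 287 readings (18.5%) were below by that much, against 16 of 287 (5.57%) in p75Low. Above the median by as much were 5 readings (1.74%) in p75High and 10 (3.48%) in p75Low. Wide readings of members were thus mostly low ones, and mostly in p75High.

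The same count over the other bright genes gave 11.1% low readings in p75High and 7.06% in p75Low, with 4.1% and 3.18% high ones. Over all tested genes, low readings made up 3.62% in p75High and 2.88% in p75Low, and high readings 9.3% and 9.67%. Low p75High readings of members numbered 12, 11, 2 and 28 on arrays 1 to 4, and low p75Low readings 2, 1, 4 and 9. Array 4 thus held the most low p75High readings and array 3 the fewest. The median deviation of the members in p75High was -0.32, -0.37, 0.03 and -1.34 on arrays 1 to 4, and in p75Low 0.12, 0.24, -0.00 and 0.25. The median SD of a member's level between arrays was 1.40 in p75High and 0.76 in p75Low, while over all tested genes it was 0.756 in p75High and 0.717 in p75Low. The SD of the ratios over members was also widest on array 4, at 2.94, against 1.76, 2.16 and 1.66 on arrays 1 to 3, and over the other bright genes it was 2.95 there. Because p75High always carried Cy5, the channel cannot be told apart from the population here.

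**Figure D3:**
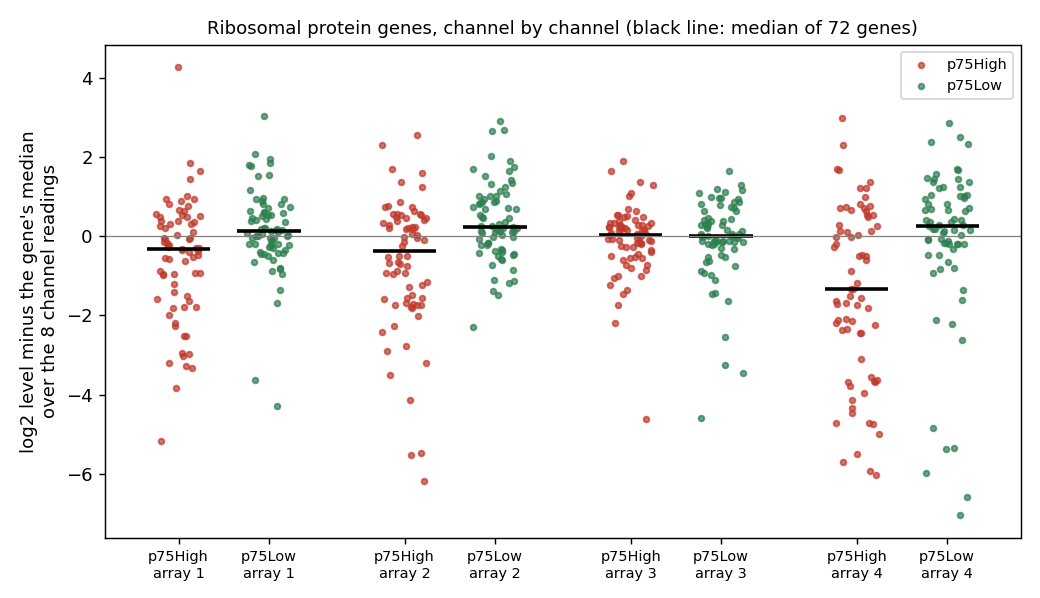
Log2 level of each ribosomal protein gene minus that gene's median over its 8 channel readings (y axis), for the p75High (red) and p75Low (green) channel of each array (x axis), with 1 point per gene and a black line at the median over genes. The p75High channel of array 4 has 28 genes more than 2 units below their own median, and the p75High channel of array 3 has 2.

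Repeat spots set a floor for these differences. The Rplp1 probe was printed 10 times, and its 8 to 10 usable spots had an SD of 0.031 to 0.052 within an array, while the array means ran over -3.71 to -1.20. Spots of this probe on an array thus differed far less than arrays did. Over all 177 kept probes printed 10 or more times, the median spot SD was 0.0872 and the median SD between arrays 0.918.

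Different probes of a gene came next. Of the 72 genes 25 had at least 2 kept probes. The SD between probes of a gene on the same array had a median of 0.47 over 99 sets of gene and array, and the SD between arrays of a gene's probe mean had a median of 1.41 over 25 genes. Over the 50 pairs of probes the 4 array values correlated at a median Pearson r of 0.86, a description over 4 points per pair, with r above 0.9 in 24 pairs and under 0.5 in 13. The sign was the same in 161 of 199 pairs of readings. As root mean squares, which weigh the widest sets more, these SDs were 1.1 between probes and 1.85 between arrays.

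The 3 probes of Rpl31 printed above were among those most alike. From base 278 the ratio was -3.22, -1.22, 0.47 and -5.82, from base 399 it was -3.62, -1.06, 0.73 and -6.19, and from base 466 it was -3.57, -0.66, 1.22 and -6.14. All 3 put array 4 lowest and array 3 highest, and r between them was 0.997 or more. The Rpl29 probe from base 107 read -1.48, 0.50, 0.77 and -5.44, and the one from base 127, with 5 different bases in the overlap, read -1.38, 0.79, 0.45 and -5.35. On no array did these 2 probes differ by more than 0.32. The 2 probes further along Rpl29 were less low on array 4, at -3.60 and -3.32.

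Probes on opposite strands could be as alike. The plus-strand Rps25 probe read -0.33, -0.74, -1.96 and -4.55, and its reverse complement read 0.30, -0.89, -1.97 and -4.39 (r 0.99). Both Rps25 strands put array 4 lowest and array 3 next, and array 1 alone differed in sign. By the file coordinates, probes of Rpl15, Rpl37 and Rps15 lie on both strands as well, with r of 0.9995 between the first 2 probes of Rpl15, 0.64 for Rpl37 and 0.79 for Rps15. The second Rpl15 probe lies at chr18:50270405-50270464, away from the chromosome 15 position of the first. A run of 53 of its bases is nevertheless the exact reverse complement of bases in the first. These Rpl15 probes thus hold largely the same sequence on opposite strands.

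**Figure D4:**
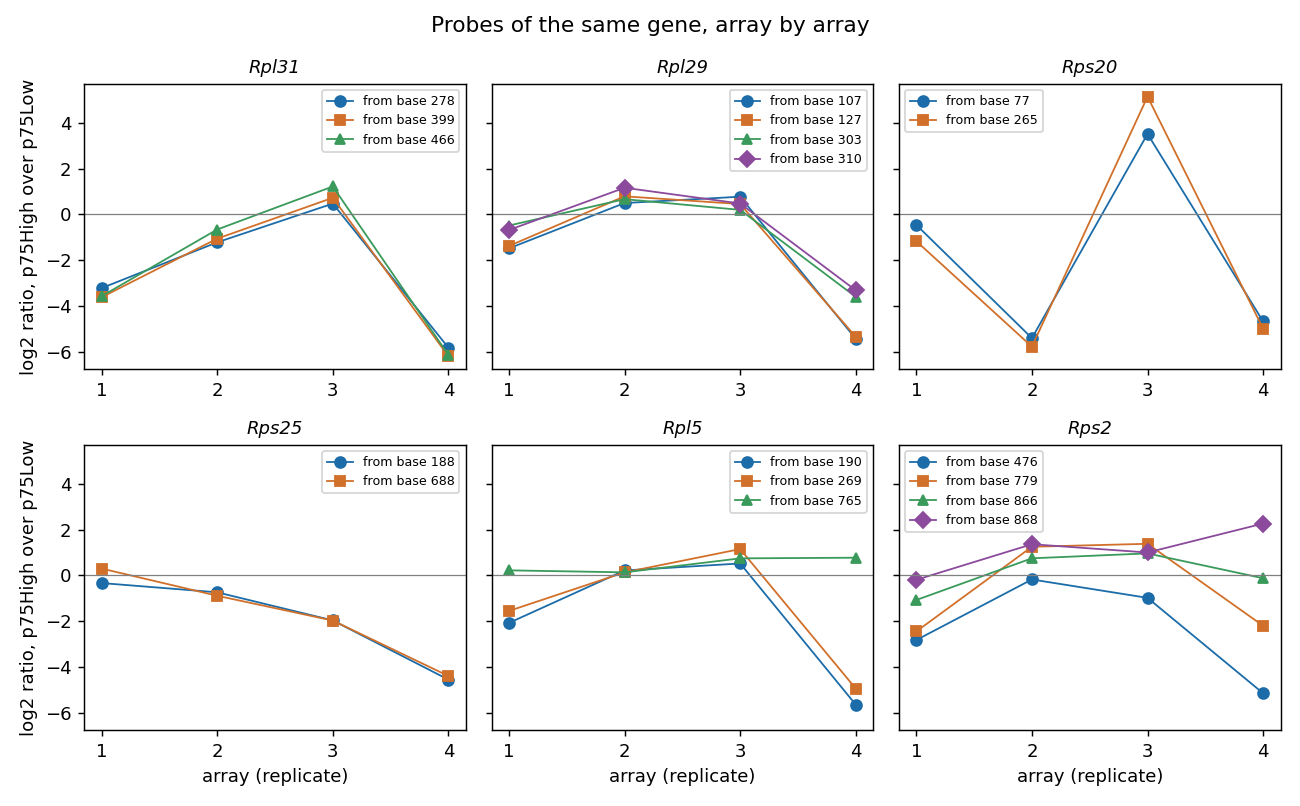
Log2 ratio of p75High over p75Low (y axis) on arrays 1 to 4 (x axis) for each kept probe of Rpl31, Rpl29, Rps20, Rps25, Rpl5 and Rps2, named by its start base in the transcript, with lines joining the arrays of a probe. The probes of Rpl31 and Rps20 move together over up to 10.9 log2 units, while the probe of Rpl5 from base 765 stays between 0.14 and 0.77.

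Rpl5 and Rps2 had the widest gaps of means between probes, and pairs with r under 0.5 were found in other genes too. The Rpl5 probe from base 190 read -2.07, 0.22, 0.52 and -5.64 and the one from base 269 read -1.55, 0.13, 1.15 and -4.94, both lowest on array 4. The probe from base 765, nearer the end of the message, read 0.22, 0.14, 0.75 and 0.77, positive on all arrays, so the gene averaged -1.74 ± 2.85 (adjusted p 0.566) by the first probe and 0.47 by the last. Rps2, of the small subunit, had the widest gap of means, 3.39. Its probe from base 476 read -2.82, -0.18, -0.98 and -5.15 (mean -2.28 ± 2.21, adjusted p 0.413), while the probes from bases 779, 866 and 868 averaged -0.50, 0.13 and 1.11. In both genes the probes nearer the 3′ end were the higher ones. Over the 107 kept member probes, pooled across genes, start position and mean ratio had a Pearson r of -0.02 and a Spearman rho of -0.02. Starts were counted in the transcripts of different genes, so this value cannot speak to a trend within a gene.

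Pairs of probes were also set out by their distance along the message. The 23 pairs on 1 transcript whose starts were under 150 bases apart had a median r of 0.90, and 86 of 91 of their readings shared a sign. The 20 pairs 150 or more bases apart had a median r of 0.83, and 55 of 80 shared a sign. The median difference between the probes on an array was 0.34 for the near and 0.79 for the far pairs. These pairs share genes and arrays, and the difference was not tested. Of the near pairs 9 were of Rpl21, and 12 of the 23 near pairs shared a run of 8 or more bases, against 2 of the 20 far pairs. In 2 splits added after the data were seen, the near pairs without Rpl21 (14 pairs) had a median difference of 0.66 and a median r of 0.95, against 0.79 and 0.86 for the 19 far pairs, and the 11 near pairs with no such run had 0.34 and 0.55. The lower r of those 11 pairs means that the order of near and far by r turned round there. The far pair with the lowest r was of Rpl15, with -3.23, 0.41, 2.03 and -5.02 from base 223 against -0.02, -3.57, -0.58 and -0.33 from base 1863 (r -0.47). The probe from base 1863 was dim, at a log2 brightness of 6.95. It stood above background on 2 arrays in p75High and 3 in p75Low. On arrays 1, 3 and 4 its levels lay between 6.23 and 6.81 in both channels, so its ratios there rest on little signal. Over the 107 kept probes, start position and the SD between arrays had a Pearson r of -0.04, and the share of G and C, which ran over 26.7% to 55%, had an r of 0.09 with the SD.

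**Figure D5:**
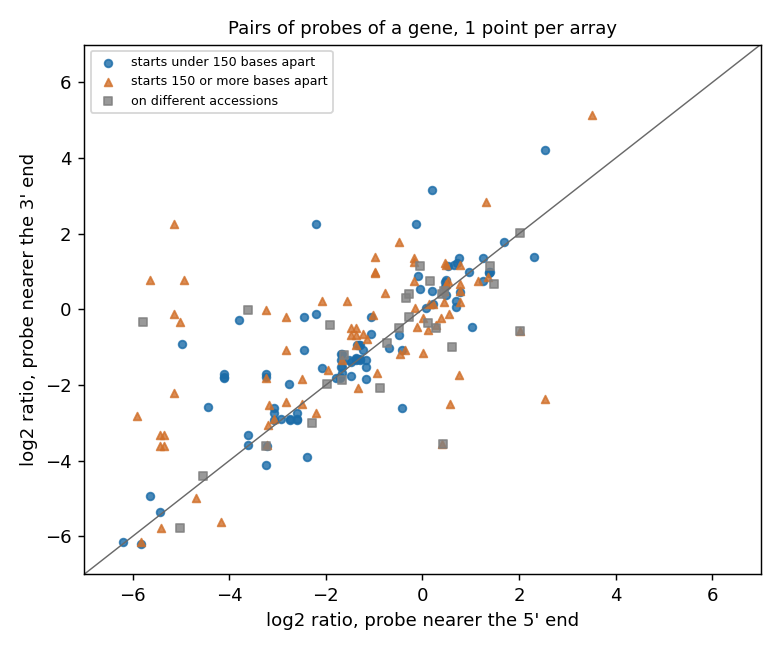
Log2 ratio of p75High over p75Low of the probe nearer the 3′ end (y axis) against that of the probe nearer the 5′ end (x axis), for 50 pairs of probes of the same ribosomal protein gene, with 1 point per array, and the line of equality (grey squares: probes whose transcript accessions differ). Pairs under 150 bases apart (blue) have a median difference of 0.34, or 0.66 without Rpl21, and pairs further apart (orange) one of 0.79.

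The gap of mean ratios between probes of a gene had a median of 0.58 over the 25 members, against 0.91 over 2288 genes of the array with at least 2 kept probes. The genes compared were not matched for brightness, and 15 of the 50 member pairs shared a run of 8 or more bases. The difference was not tested. Besides Rps2 and Rpl5, the widest gaps were those of Rpl18, Rpl35a, Rpl36a and Rpl13, all of the large subunit. The other Rpl18 probe read -0.47, 1.39, -2.61 and -2.70 (mean -1.10), so the sign of this gene depended on the probe, and its brightest probe lacked array 4. Rpl35a read -2.59, 0.53, -1.83 and -0.91 (mean -1.20 ± 1.34, adjusted p 0.478), and its other probe averaged -2.65. Rpl36a read -0.43, -3.79, 2.53 and 0.07 (mean -0.40 ± 2.60, adjusted p 0.886) against a mean of 0.73 by its other probe, and RefSeq names the transcript of both Rpl36al1. Rpl13 read -1.83, 0.44, -2.36 and -2.75 (mean -1.62 ± 1.43, adjusted p 0.40) against -0.73 by its other probe, with r -0.05 between them. By contrast the 5 probes of Rpl21, chosen for mention after its values were seen, were negative on every array, with means of -2.42 to -1.74.

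Ribosomal protein genes have many processed copies in the genome, and the array carries some under other names. RefSeq matched 93 of the 108 member probes by accession, 90 of them under the same symbol. It also named 22 probes outside the rule as ribosomal protein genes, copies or a binding protein, of which 19 were kept. The following copies were chosen for mention after their values were seen. The probe that RefSeq calls Rps19-ps18 read -4.36, -3.27, 1.09 and -4.34, within 0.44 of Rps19 on every array. Rps27a-ps5 and Rpl7-ps31 each followed their parent gene at r 0.99 or more. Others did not, and Rpl37al2, for one, averaged 0.84 where Rpl37a averaged -1.43. The Rpl37a probe was the dimmest of the members, at a log2 brightness of 7.91 against 13.4 for Rpl37al2, and RefSeq did not match it. Signal from a gene and from such a copy cannot be told apart where their sequences are close, so single members with copies are uncertain in identity.

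Other genes of translation, on lists given for comparison, behaved alike in that 0 passed the threshold. These lists were the proteins made as fusions with ubiquitin-like proteins or bound to ribosomes (0 of 8), elongation factors (0 of 10), initiation factors (0 of 13), ribosome assembly (0 of 12), S6 kinases and mTOR (0 of 12) and mitochondrial ribosomal proteins (0 of 41), beside 0.748% of all genes. Their median ratios were -0.18, 0.20, -0.34, 0.05, 0.26 and -0.15 in that order. At an unadjusted p under 0.05, 5 of these 96 genes passed (5.21%), beside 12.7% of all tested genes in either direction. Their median SD between arrays was 1.86, 1.80, 2.22, 2.87, 2.44 and 1.74, as wide as that of the ribosomal proteins or wider, except for the mitochondrial ones.

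Gnb2l1, the scaffold RACK1 of the small subunit, read -3.02, -3.91, -0.01 and -3.77 (mean -2.68 ± 1.82, adjusted p 0.318), and Btf3, of the nascent-chain complex, averaged -2.0 ± 2.55 (adjusted p 0.498). Among elongation factors Eef2, the translocase, averaged 1.41 ± 1.5 (adjusted p 0.455) and the termination factor Gspt1 -1.14 ± 1.5 (adjusted p 0.522). The RNA helicase Eif4a1 was negative on all arrays at -0.84, -0.90, -2.05 and -2.42 (mean -1.56 ± 0.80, adjusted p 0.297), while Eif2s3x, of the initiator complex, averaged -2.20 ± 2.51 (adjusted p 0.460). None of these passed after adjustment over all genes, and the unadjusted p by limma was 0.0150 for Eif4a1 and 0.0205 for Gnb2l1.

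Of assembly factors, Bop1, of the large-subunit pathway, was positive on all arrays (mean 1.57 ± 1.00, adjusted p 0.326), and the nucleolar chaperone Npm1 averaged -2.58 ± 2.49 (adjusted p 0.408). The kinase Rps6ka2 read 6.82, 0.14, 6.63 and 0.22 (mean 3.45 ± 3.78, adjusted p 0.445), high on 2 arrays and near 0 on the others, and Akt1, upstream of mTOR, averaged 1.71 ± 2.28 (adjusted p 0.512). Mrps27, of the mitochondrial small subunit, was at -0.80 ± 0.23 (adjusted p 0.359), or -1.52 with the scanner ratios, and Mrps17 averaged -3.90 ± 3.56 (adjusted p 0.388).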

How the data were processed

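Gene expression of p75High and p75Low cells was read on 4 two-colour Agilent arrays (design 014879, Feature Extraction 10.5.1.1, per the file headers, and 10.5 per the submitters' processing notes). Per the file headers, each spot's deposited intensity was its mean pixel value in each channel, beside the median of the local background, neither of them normalized. The scanner software's log10 ratios (Cy5 over Cy3, per the file headers) equalled the authors' deposited value table (maximum difference 0) and served as an alternative.

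In limma 3.58.1 under R 4.3.3, intensities were background-corrected with normexp (offset 50), normalized by loess (span 0.3) within each array and turned to log2 ratios. The 1639 control spots and 1112 of 173516 readings marked as outliers (0.641%) were left out, 6 of the 504 member readings among them. Averaging the repeat spots left 24872 kept probes and 22195 genes. Channel levels were set between arrays by the Aquantile method. lmFit and eBayes tested the ratio within each array, which is the paired difference the labels state. Simulated data were used to test the fit. With group means removed, the channels of an array correlated across genes at 0.13, 0.06, 0.07 and 0.26 for replicates 1 to 4, and at most at 0.05 with p75Low of another array.

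Named genes were Ngfr (the check of the sort) and, of the members, the 6 highest and 6 lowest mean ratios, the 4 smallest and 6 largest SDs, the 6 widest probe gaps, the 4 brightest, a fixed set (Rplp0, Rplp1, Rplp2, Rpsa, Rps6, Rps3, Rps18, Rpl10, Rpl13a, Rpl32, Rps27a and Rpl22, of which Rplp0 is no member under the file's names) and variants. Other lists gave up to 3 genes past the threshold, otherwise the 2 with the smallest p. Members, lists and rules were chosen with earlier results of these data known. RefSeq names came from the GRCr8 assembly, used for names alone. The alternatives were no background correction, median centring, the scanner ratios, no or a stricter filter on dim probes, outlier spots kept, pairing ignored, the median over a gene's probes, and each replicate left out. Results of 2 members are counted but not reported here.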

Additional observations from a re-analysis of the deposited data

Results flagged for a closer look

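In 56 sets of 4 array values, those of the named genes, 2 held an array far from the other 3, and chance flags about 1 set in 20. Rps18, of the small subunit, had a log2 ratio of 1.27 on array 4, while the other arrays lay between -0.71 and -0.41. Mrps17, of the mitochondrial small subunit, had a log2 ratio of 1.43 on array 1, while the other arrays lay between -5.97 and -5.51. The cause of neither reading was tested.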

How the results depend on the processing

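The count of 0 ribosomal protein genes past the threshold held under 11 of 12 alternatives, and became 1, Rpl3l, with no replicate block, where the pairing of the channels is ignored. The count of 0 member probes likewise became 1 with no replicate block. Over all genes the count was 166, and 263 with the scanner ratios, 89 with no filter on dim probes, 308 with no replicate block and 0 with each replicate left out in turn, so with 3 arrays no gene passed in limma, while 9 to 13 members (12.5% to 18.1%) and 8.48% to 10.7% of all genes had an unadjusted p under 0.05. The members' median log2 ratio of -0.70 stayed negative under all 12, at -0.45 with median centring, -0.80 with scanner ratios and -0.91 to -0.57 with 1 replicate left out. Median centring also moved the median of all tested genes to 0.13, and 46 of 72 members were then negative. The members' median SD between arrays, 1.79, was 1.45 to 1.75 with 1 replicate left out, lowest without replicate 4. The median gap between probes, 0.58, was 0.39 to 0.57, again lowest without replicate 4. The 6 other translation lists had 0 genes past the threshold under each alternative. Of 395 values of 33 named members under the alternatives, 26 changed sign.

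These values changed sign, with the widest per gene given where 1 replicate was left out. With the median over probes, Rpl18 was -0.52, Rpl36a 0.16, Rpl27 -0.01 and Rpl37 -0.09. With the scanner ratios, Rpl22 was -0.02 and Rpl37 -0.01. With median centring, Rpl30 was 0.34 and Rps18 0.24. With 1 replicate left out, Rpl3 reached -0.41, Rpl41 -0.26, Rpl32 -0.52, Rplp2 0.92, Rps23 -1.11, Rpl36a 0.72, Rpl30 0.47, Rpl22 -0.37, Rpl37 -0.09, Rps18 0.06 and Rpsa -0.20. The cause of these changes was not tested. In both channels of all 4 arrays 98 of 108 member probes were above background. Dyes were not exchanged on any array.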
